A study of Bos taurus with 4 samples.

Results

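The genes described here encode the DNA replication and DNA repair machinery, measured by RNA sequencing in bovine (Bos taurus) embryos. They were chosen by symbol: families whose names start with MCM, ORC, POLA, POLD, POLE, RFC, GINS, RPA, RAD, XRCC, FANC, MSH, MLH, ERCC or BRCA, and 13 single genes such as PCNA, ATM and PARP1. The deposited table held 95 transcript rows of 93 such genes, out of 14517 rows in all. The libraries were made from polyadenylated RNA of embryos at the 8- to 16-cell stage, collected 3 days after insemination. Controls (NC, 2 libraries) had been injected as zygotes with negative control siRNAs, and knockdown embryos (KDM5_KD, 2 libraries) with siRNAs against the histone H3K4 demethylases KDM5A, KDM5B and KDM5C. All embryos were therefore injected. The second knockdown library carries a KDM5 title but a treatment entry that names KDM6 siRNAs, and it was grouped by its title. Neither the number of embryos per library nor separate batches of embryos are stated, so p-values measure only the spread between these libraries.

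Before each division a cell must copy its genome once. The origin recognition complex (ORC) marks start sites and loads the MCM helicase, the GINS proteins help to activate it, and DNA polymerases alpha, delta and epsilon then copy the strands. They work with the sliding clamp PCNA, its loader RFC and the single-strand binding protein RPA. Errors, damaged bases and breaks are handled by mismatch repair (the MSH genes), base excision repair (APEX1, OGG1, UNG), nucleotide excision repair (ERCC), homologous recombination (BRCA1, RAD50), the Fanconi anaemia proteins and end joining (XRCC4, XRCC5, XRCC6). Early embryos divide quickly while much of their messenger RNA still comes from the egg, and the bovine embryo activates its own genome around the stage sampled here.

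Values are FPKM, which are scaled by transcript length and library depth, so levels of different genes are given side by side. Such comparisons are approximate, as nearly all genes here have 1 record while RefSeq lists several transcripts for many. Some genes also overlap another gene. The FPKM values summed to between 283347 and 322267 per library. Read counts are not given by the table, but the steps of low values put the depth of the other libraries at 0.683 to 0.802 times that of NC replicate 2. KDM5A stood at 28.4 and 27.1 FPKM in NC against 10.5 and 10.1 in KDM5_KD, and KDM5C at 28.1 and 40.6 against 15.1 and 17.8. Both were low in the second knockdown library as well, while KDM6A was at 7.63 and 11.3 in NC and at 7.90 and 9.29 in KDM5_KD. KDM5B and KDM6B were not analysed here. All 12 rows of the oocyte and early embryo markers, such as POU5F1 and BMP15, were at 1 FPKM or more in each library. Their sum was 610 and 491 FPKM in NC and 720 and 796 in KDM5_KD. Of the 12 rows, 5 lay above both controls (41.7%, against 35.1% of all transcripts). The median log2 fold change was 0.35, against 0.09 over all transcripts. Summed markers of cumulus and granulosa cells, which surround the egg, were at 31.3 and 17.8 FPKM in NC and 45.7 and 49.6 in KDM5_KD. Of the 9 tested, 7 lay above both controls in both knockdown libraries (77.8%, against 35.1% of all transcripts). In size, 3 of these 9 rows were at least 2-fold higher in KDM5_KD on log2(FPKM + 1), or 33.3%, against 4.52% of all transcripts. The log2 fold changes of 2 of the 9 were below zero. FSHR, a gene of this list too low to be tested, was at 0 in both NC libraries and at no more than 0.0443 FPKM in the knockdown. The part of either marker list in the values below was not tested.

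None of the replication and repair genes differed between the groups past the threshold. Of the 95 rows, 87 had a mean of at least 1 FPKM and were tested on log2(FPKM + 1) with limma over all 8970 transcripts that reached this level. No row was higher and none was lower at an adjusted p under 0.05, where 0.19% and 0.0892% of all transcripts were called. With shares this low, the absence of calls among 87 rows does not set the members apart from all transcripts. The fit also missed most changes of 2-fold in simulated data. At an unadjusted p under 0.05, limma had 3 rows higher and 2 lower (3.45% and 2.30%), against 14.3% and 3.12% of all transcripts. The lowest adjusted p of any row was 0.139. On the log2(FPKM + 1) scale, none of the 87 tested rows differed by 2-fold. Of all transcripts, 4.52% reached this size on the high side and 0.301% on the low side. With a pseudocount of 0.1, ERCC1 passed it, at a log2 fold change of 1.05.

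The differences were small as well as below the threshold. The log2 fold changes, knockdown minus control on the log2(FPKM + 1) scale, lay between -0.57 and 0.79, and 58 of 87 were within 0.2 of zero (66.7%, against 48.6% of all transcripts). This scale understates differences of genes with low levels. These sizes and the intervals below are for the values as deposited. The median of the members was -0.068 with median-ratio scaling and -0.125 with quantile normalization. The median of all transcripts was then -0.007 and -0.047. On the log2(FPKM + 1) scale, the 95% interval of the difference stayed between -1 and 1 for 82 of the 87 rows. This was 94.3%, against 77.6% of all transcripts. The exceptions were GINS4, POLD4, RFC2, ERCC1 and 1 row of TIPIN, whose intervals reached above 1. For rows with low levels, such as XRCC3, an interval inside these limits can still pass 2-fold in FPKM. In whole-embryo RNA scaled by library depth, neither the number of cells nor the total RNA per cell is measured.

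**Figure D1:**
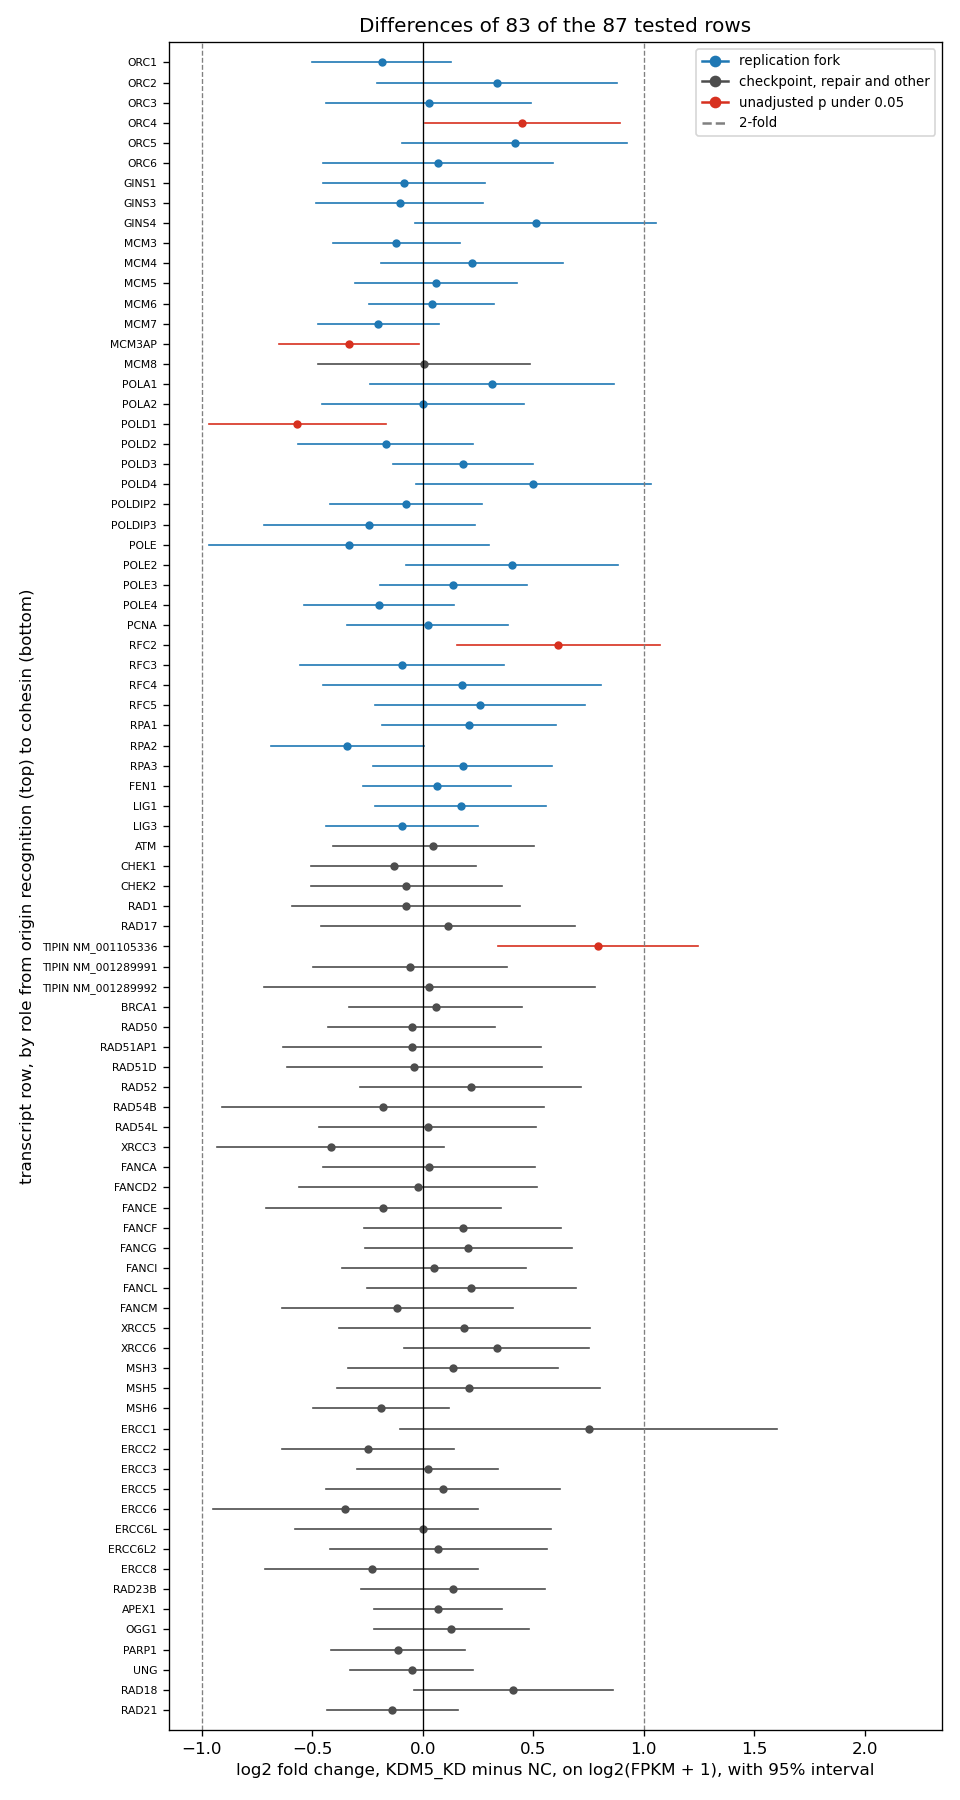
Log2 fold change of 83 of the 87 tested rows (x axis, knockdown minus control on log2(FPKM + 1)), with rows ordered by role on the y axis. Points are estimates, bars are 95% intervals and dashed lines mark 2-fold on this scale. The 5 red rows had an unadjusted limma p under 0.05 and none passed after adjustment.

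The median log2 fold change was 0.03 over the 87 rows and 0.09 over all transcripts. Without NC replicate 2 this order turned, with 0.106 over the 87 rows and 0.099 over all transcripts. As deposited, 51 rows were above zero (58.6%, against 62.6%). These signs depended on how the libraries were scaled: 30 of the 87 rows were above zero with median-ratio scaling and 28 with quantile normalization, where 49.2% and 43.0% of all transcripts were. Both knockdown libraries lay above both controls for 23 rows, or 26.4%, against 35.1% of all transcripts. They lay below both for 14 rows, or 16.1%, against 15.6%. With median-ratio scaling the numbers were 12 above and 25 below, where 25.9% and 25.4% of all transcripts lay above and below. With quantile normalization they were 6 and 28, where 20.7% and 28.3% of all transcripts did.

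The median level was 14.5 FPKM over the 87 rows and 10.5 FPKM over all tested transcripts. When all tested transcripts were divided into 4 equal groups by level, the members had smaller absolute differences than all transcripts in each group. This division used the values as deposited and was not repeated with other scaling. In the lowest group the median absolute log2 difference was 0.22 for 14 member rows and 0.31 for all transcripts. In the next group it was 0.18 against 0.25, in the third 0.09 against 0.19, and in the highest 0.13 against 0.14. The plot of difference against level shows the members lying inside the cloud of all transcripts.

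**Figure D2:**
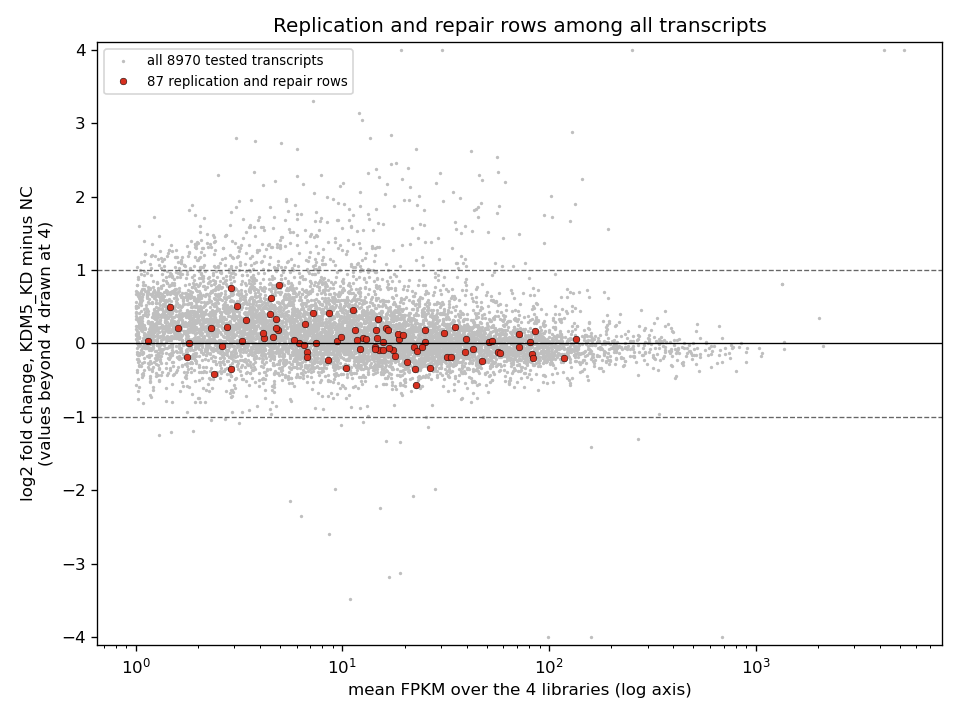
Log2 fold change (y axis, knockdown minus control) against mean FPKM over the 4 libraries (x axis, log scale) for all 8970 tested transcripts in grey and the 87 replication and repair rows in red. Values beyond 4 are drawn at 4. Dashed lines mark 2-fold on the log2(FPKM + 1) scale, and no red point reaches them. In contrast, 405 grey points lie at or above the upper line and 27 at or below the lower one.

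The 2 control libraries often differed from each other by more than the groups did. For 55 of the 87 rows, or 63.2%, the difference between the groups was smaller than the gap between NC replicates 1 and 2, against 49.4% of all transcripts. NC replicate 1 was above NC replicate 2 for only 36 rows (41.4%), against 55.8% of all transcripts. Among the 8 tested rows of checkpoint genes it was above for 1. POLE, RAD54B, RAD17 and ERCC1, described below, are examples of genes with a wide gap.

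The origin recognition complex was measured for all 6 ORC subunits. ORC1, the subunit that recruits the loading factor CDC6 and binds ATP, had the highest level, with 34.5 and 33.9 FPKM in NC and 28.5 and 31.4 in KDM5_KD. Its knockdown values lay below both controls (log2 fold change -0.19, 95% interval -0.50 to 0.13, limma adjusted p of 0.510). ORC4, another core subunit, was at 9.68 and 8.98 FPKM in NC and 11.7 and 14.7 in KDM5_KD. The groups did not overlap, and the difference of 0.45 (SE 0.181) missed the threshold with a limma adjusted p of 0.281. ORC5 stood in the same order, at 6.16 and 5.85 against 7.12 and 9.75 FPKM (log2 fold change 0.42, limma adjusted p of 0.367). Without KDM5_KD replicate 2, the higher knockdown library, the differences were 0.30 for ORC4 and 0.21 for ORC5.

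The other ORC subunits showed less separation. ORC2 was at 3.49 and 4.77 FPKM in NC and 4.92 and 5.98 in KDM5_KD, so that NC replicate 2 and KDM5_KD replicate 1 were nearly level. Its difference of 0.34 was 0.16 without NC replicate 1. ORC3 and ORC6 overlapped between the groups, with log2 fold changes of 0.03 and 0.07. Over the 6 subunits 5 differences were above zero, as were 62.6% of all transcripts. The median was 0.20, against 0.09 over all transcripts. It became 0.11 with median-ratio scaling and 0.01 with quantile normalization, where that of all transcripts was -0.007 and -0.047. In the control libraries ORC1 was 2.76 times the next subunit, ORC6, and the levels of ORC4 and ORC3 could not be separated. ORC5 came next and ORC2 was lowest, each below its neighbour in both control libraries.

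The MCM helicase unwinds DNA ahead of the polymerases. MCM7 was its most abundant measured subunit, with 123 and 130.0 FPKM in NC and 114 and 106 FPKM in KDM5_KD. Both knockdown libraries lay below both controls, at 86.9% of the control mean (log2 fold change -0.20, 95% interval -0.48 to 0.07, limma adjusted p of 0.415). MCM3 showed the same order at 61.4 and 57.2 against 55.3 and 53.6 FPKM, with a smaller difference of -0.12. MCM6 was nearly level, at 51.4 and 53.6 FPKM in NC and 54.1 and 53.9 in KDM5_KD, and its interval ran from -0.24 to 0.32. MCM4 was at 34.9 and 29.7 against 33.4 and 42.6 FPKM, and MCM5 at 17.0 and 19.8 against 19.6 and 18.9. Both overlapped between the groups. Among these 5 subunits, 3 differences were above zero and 2 below, the largest being 0.22 for MCM4; those of MCM5 and MCM6 turned negative with median-ratio scaling.

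The subunits of the helicase ring act together in equal numbers, yet their messenger levels were spread. In the control libraries MCM7 stood 2.14 times above MCM3, and MCM3 stood above MCM6, MCM4 and MCM5 in that order, each below its neighbour in both control libraries. The ratio of MCM7 to MCM5 within a library was 7.23 and 6.56 in NC and 5.81 and 5.64 in KDM5_KD. Of the GINS genes, GINS1 was at 17.1 and 15.4 against 15.6 and 14.8 FPKM, and GINS3 at 21.5 and 26.4 against 22.1 and 22.0. GINS4 had a much lower level, at 2.27 and 2.45 FPKM in NC and 3.18 and 4.47 in KDM5_KD. Its groups did not overlap, and its difference of 0.51 (SE 0.223) had a limma adjusted p of 0.314; after quantile normalization its groups overlapped, and without KDM5_KD replicate 2 the difference was 0.32.

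Another pair of genes carries the MCM name. MCM8, a helicase relative that works in recombination, was at 1.82 and 1.80 FPKM in NC and 1.88 and 1.76 in KDM5_KD. MCM3AP encodes a large scaffold protein of messenger RNA export that was found as a partner of MCM3, and it is not a helicase subunit. It was at 30.6 and 29.1 FPKM in NC and 23.9 and 23.1 in KDM5_KD, the 2 knockdown libraries being close together and below the controls. The log2 fold change was -0.33 (SE 0.130, 95% interval -0.65 to -0.02), with a limma adjusted p of 0.271. In the RefSeq table MCM3AP overlaps the gene YBEY. The labels do not give strand, and without it reads of overlapping genes cannot be told apart. Of the 93 genes, 38 overlap another gene in that table, among them MCM7, ORC4, TIPIN, XRCC3, ERCC1, ERCC2 and MSH6, but not POLD1, RFC2, GINS4, POLD4, ORC5 or RAD18.

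**Figure D3:**
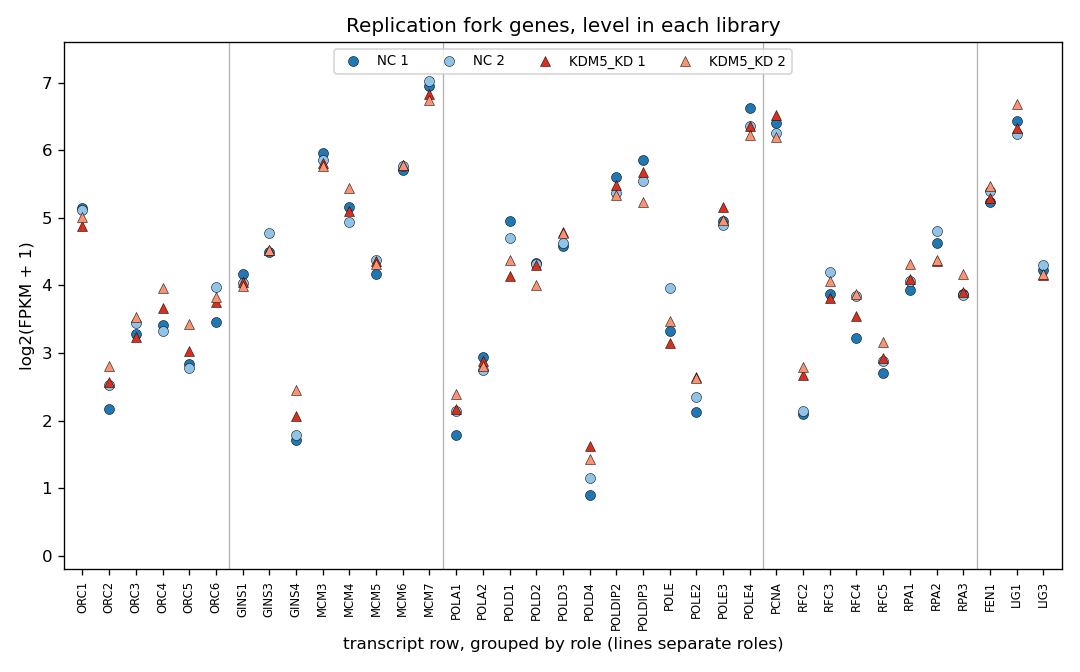
Level of each replication fork row in each library (y axis, log2(FPKM + 1)), with rows grouped by role on the x axis from ORC1 to LIG3, circles for NC and triangles for KDM5_KD. Subunits differ far more from each other than the groups do, and POLD1 and RFC2 show the widest gaps between circles and triangles.

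Among the replicative polymerases POLD1 had the largest log2 fold change on the log2(FPKM + 1) scale. It encodes the catalytic subunit of polymerase delta, which copies the lagging strand. POLD1 was at 29.9 and 25.0 FPKM in NC and 16.7 and 19.7 in KDM5_KD. Both knockdown libraries were lower than both controls, with a mean of 66.2% of the control level. The log2 fold change was -0.57 (SE 0.165, 95% interval -0.97 to -0.17) and did not pass, with a limma adjusted p of 0.181. The other subunits of this enzyme lay on both sides of zero, and differences between subunits were not tested. POLD2 was also below both controls, at 19.1 and 19.0 FPKM against 18.7 and 15.1 (log2 fold change -0.17), while POLD3 was at 23.0 and 23.7 against 26.8 and 26.6 (0.18). The small subunit POLD4 was barely above the detection filter, at 0.864 and 1.23 FPKM in NC and 2.09 and 1.69 in KDM5_KD. Its mean was 181% of the control mean. The difference of 0.50 on the log2(FPKM + 1) scale had a limma adjusted p of 0.311, and its groups overlapped after quantile normalization. With a pseudocount of 0.1 it was 0.81, larger in size than that of POLD1 at -0.59.

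Polymerase epsilon copies the leading strand. Its catalytic subunit POLE was at 9.03 and 14.6 FPKM in NC and 7.84 and 10.1 in KDM5_KD. The controls differed by more than the groups, which overlapped, and the interval ran from -0.97 to 0.30. Its difference was -0.34, and -0.65 without NC replicate 1 but -0.02 without NC replicate 2. POLE2, the second subunit, was at 3.35 and 4.08 FPKM in NC and 5.24 and 5.18 in KDM5_KD (log2 fold change 0.40, limma adjusted p of 0.356). POLE3 and POLE4 are small histone-fold subunits and were more abundant, at 30.0 and 28.7 against 34.6 and 30.3 FPKM and at 98.2 and 81.2 against 81.3 and 74.3. Polymerase alpha, which makes the primers, had low levels: POLA1 was at 2.44 and 3.43 FPKM in NC and 3.49 and 4.24 in KDM5_KD. POLA2, its accessory subunit, was at 6.69 and 5.69 against 6.35 and 6.02. The proteins POLDIP2 and POLDIP3 interact with polymerase delta, and POLDIP3 also serves messenger RNA export; both overlapped between groups, with differences of -0.08 and -0.24. Over the 12 polymerase rows, 6 differences were above zero and 6 below.

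PCNA, the clamp that holds polymerases on DNA, was at 84.2 and 75.9 FPKM in NC and 90.9 and 72.4 in KDM5_KD. The knockdown libraries spanned the controls, and the difference was 0.02 (95% interval -0.34 to 0.39), turning negative with median-ratio scaling. The clamp loader was measured by RFC2, RFC3, RFC4 and RFC5. RFC2 was at 3.30 and 3.41 FPKM in NC and 5.41 and 5.91 in KDM5_KD, with little spread in either group. This was 169% of the control level, a log2 fold change of 0.61 (SE 0.189, 95% interval 0.15 to 1.07) with a limma adjusted p of 0.196. The other loader genes did not separate in this way: RFC3 was at 13.6 and 17.5 against 13.1 and 15.8 FPKM, and RFC4 at 8.29 and 13.4 against 10.7 and 13.7. RFC5 was at 5.50 and 6.36 against 6.61 and 8.00 FPKM, the lowest knockdown value lying just above the highest control.

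The RPA subunits protect single-stranded DNA as a trimer. RPA2 was at 23.7 and 26.9 FPKM in NC and 19.6 and 19.9 in KDM5_KD, at 77.9% of the control mean. Its log2 fold change of -0.34 (SE 0.142) had a limma adjusted p of 0.291. RPA1 and RPA3 lay in the opposite order, at 14.2 and 15.8 against 16.2 and 19.0 FPKM and at 13.6 and 13.4 against 14.0 and 17.1. Their differences of 0.21 and 0.18 had limma adjusted p of 0.554 and 0.622. RPA2 overlaps THEMIS2 and RPA3 overlaps UMAD1 in the RefSeq table.

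The enzymes that finish the lagging strand were abundant and even. FEN1, which trims flaps, was at 36.7 and 41.1 FPKM in NC and 38.3 and 43.2 in KDM5_KD. LIG1, the ligase that seals the fragments, was at 85.3 and 74.9 FPKM against 79.6 and 102, with the highest and the next-to-lowest value both in the knockdown group. LIG3, which serves mitochondrial DNA and break repair, was at 17.7 and 18.7 against 16.9 and 17.1, below both controls. Their intervals lay between -0.44 and 0.56 on the log2 scale, so that 2-fold differences were outside them.

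Checkpoint genes halt division when DNA is damaged or incompletely copied. CHEK1, the kinase that answers stalled forks, was the highest of them at 53.3 and 68.5 FPKM in NC and 55.2 and 54.9 in KDM5_KD. Only NC replicate 2 stood apart. CHEK2 and ATM, which answer double-strand breaks, were at 11.3 and 13.9 against 11.2 and 12.6 FPKM and at 5.28 and 6.14 against 5.89 and 5.95. RAD1, a subunit of the checkpoint clamp, was at 12.2 and 17.6 against 13.0 and 14.9 FPKM. RAD17, which loads that clamp, was at 15.4 and 22.4 against 17.2 and 23.6, where each replicate 2 was above each replicate 1. All of these overlapped between the groups, with log2 fold changes between -0.13 and 0.11. RAD9B, a clamp subunit, was at no more than 0.219 FPKM in any library and was not tested.

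TIPIN, which with TIMELESS protects stalled forks, gave the largest log2 fold change of the 87 rows on the log2(FPKM + 1) scale, in 1 of its 3 transcript records. With a pseudocount of 0.1 it was 0.95, below ERCC1 at 1.05. NM_001105336 was at 3.45 and 3.21 FPKM in NC and 6.52 and 6.48 in KDM5_KD. The replicates of each group were nearly identical and the knockdown stood at 195% of the control mean. The log2 fold change was 0.79 (SE 0.186, 95% interval 0.34 to 1.25), with an unadjusted limma p of 0.00515 and an adjusted p of 0.139. The main record, NM_001289991, was at 14.9 and 19.6 FPKM in NC and 15.8 and 16.9 in KDM5_KD, with a difference of -0.06. The third, NM_001289992, was at 0.705 and 1.54 against 1.60 and 0.733.

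The sum of the 3 TIPIN records was 19.0 and 24.4 FPKM in NC and 23.9 and 24.2 in KDM5_KD, so the gene as a whole overlapped between the groups. The share of NM_001105336 in that sum was 18.1% and 13.2% in NC and 27.3% and 26.8% in KDM5_KD. The share of the main record was 78.2% and 80.5% against 66.0% and 70.1%. With 2 libraries per group an exact two-sided permutation test of such a share cannot give a p below 0.333. Records of 1 gene share most of their sequence, so these rows depend on how the authors' program divided shared reads. TIMELESS itself was at 8.85 and 11.5 FPKM in NC and 9.96 and 9.54 in KDM5_KD.

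**Figure D4:**
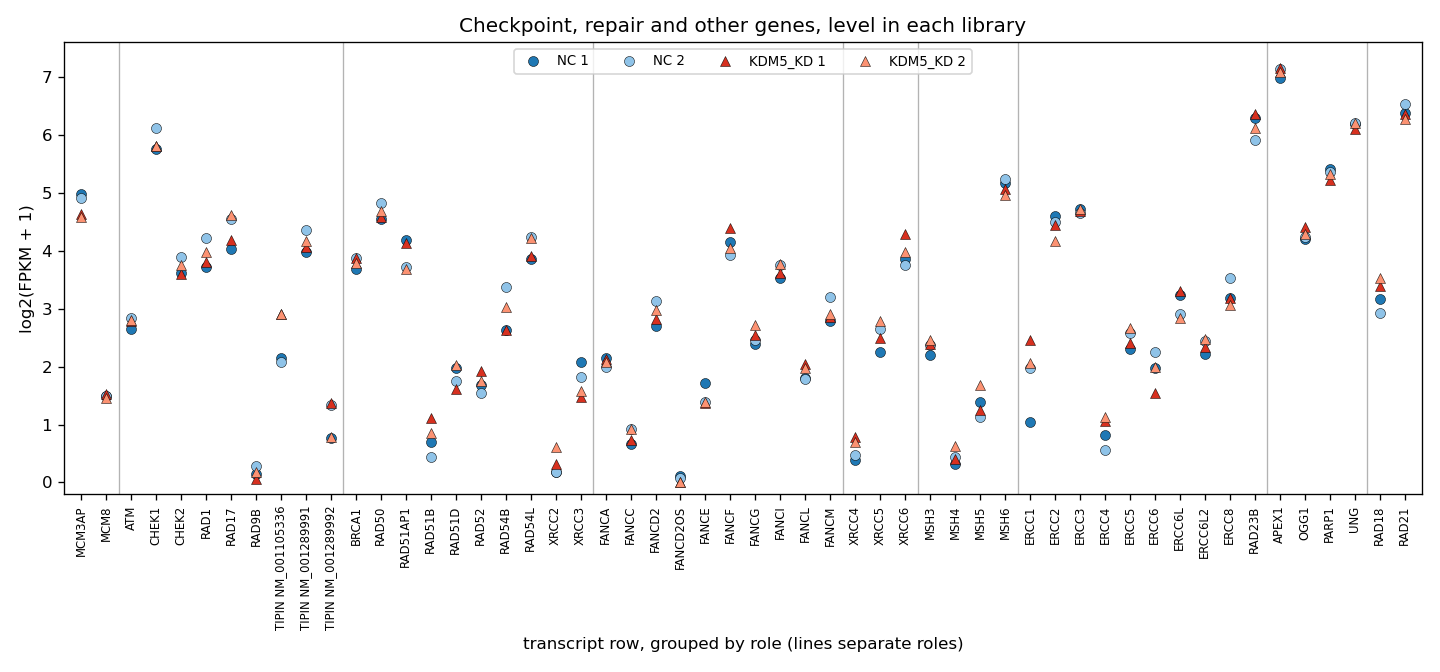
Level of checkpoint, repair and other rows in each library (y axis, log2(FPKM + 1)), with rows grouped by role on the x axis, circles for NC and triangles for KDM5_KD. TIPIN NM_001105336 and ERCC1 show the triangles above the circles, ERCC1 with a low NC replicate 1, and 8 rows near the bottom were too low to be tested.

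Homologous recombination repairs breaks from an intact copy. BRCA1, which prepares broken ends for repair, was at 11.9 and 13.6 FPKM in NC and 13.7 and 12.9 in KDM5_KD (log2 fold change 0.06, 95% interval -0.33 to 0.45). RAD50, part of the complex that senses breaks, was at 22.3 and 27.3 against 23.0 and 24.7 FPKM and overlapped too. The sign of the BRCA1 difference changed with median-ratio scaling and quantile normalization. RAD54L and RAD54B, motor proteins of the exchange step, were at 13.5 and 17.8 against 14.0 and 17.7 FPKM and at 5.22 and 9.42 against 5.22 and 7.13. In both genes replicate 2 was the higher library of each group. RAD51AP1, which also acts in strand exchange, had the reverse order, at 17.3 and 12.2 against 16.5 and 11.8.

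Several other recombination genes had low levels. XRCC3 was at 3.23 and 2.52 FPKM in NC and 1.80 and 1.98 in KDM5_KD, without overlap and at 65.7% of the control mean. Its log2 fold change of -0.42 (SE 0.210) had a limma adjusted p of 0.370. RAD51D was at 2.92 and 2.36 against 2.06 and 3.08 FPKM. XRCC2 and RAD51B were below the filter, at 0.129 and 0.132 against 0.247 and 0.527 FPKM and at 0.623 and 0.351 against 1.16 and 0.802. RAD52, an annealing protein, was at 2.22 and 1.92 against 2.78 and 2.36. Of the 9 recombination rows tested, 7 were within 0.2 of zero, as were 48.6% of all transcripts, and 7 overlapped between groups, as did 4420 of the 8970 transcripts.

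The Fanconi anaemia proteins act on crosslinks between the strands. FANCD2 and FANCI, the pair that is ubiquitinated at the lesion, were at 5.49 and 7.82 against 6.08 and 6.84 FPKM and at 10.6 and 12.5 against 11.3 and 12.6. FANCA, of the core complex, was at 3.44 and 3.00 against 3.36 and 3.23. FANCL, the ubiquitin ligase subunit, was at 2.49 and 2.44 FPKM in NC and 3.12 and 2.96 in KDM5_KD, without overlap but with a limma adjusted p of 0.609. All 8 tested rows had log2 fold changes between -0.18 and 0.22. FANCC stayed at 0.907 FPKM or less and was not tested. FANCD2OS carries the name only because it lies opposite FANCD2; it was at 0.0831 and 0.0566 FPKM in NC and listed at 0 in both knockdown libraries.

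End joining seals breaks without a template. XRCC5 and XRCC6 encode the Ku pair that binds the ends, and XRCC6 was the higher of them in every library. XRCC6 was at 13.4 and 12.5 FPKM in NC and 18.5 and 14.9 in KDM5_KD (a difference of 0.33, SE 0.171, with an adjusted p of 0.381 by limma). Without KDM5_KD replicate 1 the difference was 0.18. XRCC5 was at 3.75 and 5.29 against 4.64 and 5.88 FPKM and overlapped. XRCC4, the partner of the end-joining ligase, was at 0.312 and 0.396 against 0.722 and 0.622 and was too low to be tested.

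In mismatch repair, MSH6 belongs to the complex that finds single mismatches. It was at 35.2 and 36.8 FPKM in NC and 32.5 and 30.4 in KDM5_KD, below both controls (log2 fold change -0.19, 95% interval -0.50 to 0.12, limma adjusted p of 0.490). MSH3, which serves larger loops, was at 3.59 and 4.19 against 4.26 and 4.48 FPKM. The meiotic genes of the family were lower still, MSH5 at 1.61 and 1.20 against 1.37 and 2.21 FPKM and MSH4 at no more than 0.554.

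Nucleotide excision repair removes bulky lesions. ERCC2 and ERCC3, the helicases of the transcription factor TFIIH, were at similar levels. ERCC3 was at 25.4 and 24.2 against 24.9 and 25.4 FPKM, while ERCC2 was at 23.2 and 21.7 against 20.8 and 16.9 (log2 fold change -0.25, limma adjusted p of 0.475). ERCC1 and ERCC4 form the nuclease that cuts on 1 side of the lesion, and both had low levels. ERCC1 was at 1.06 and 2.92 FPKM in NC and 4.50 and 3.16 in KDM5_KD. The groups barely failed to overlap, NC replicate 1 was far below NC replicate 2, and the difference of 0.75 (SE 0.349, 95% interval -0.10 to 1.61) had a limma adjusted p of 0.336. It was 0.29 without NC replicate 1 and 1.22 without NC replicate 2. With median-ratio scaling or quantile normalization its groups overlapped. ERCC4 was at 0.760 and 0.473 against 1.09 and 1.19 FPKM, below the filter.

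ERCC6 and ERCC8, which start repair at stalled RNA polymerase, were at 2.94 and 3.78 against 1.91 and 2.98 FPKM and at 8.12 and 10.6 against 8.15 and 7.39. Both overlapped between the groups. ERCC5, the other nuclease, was at 3.92 and 5.01 against 4.28 and 5.36. RAD23B, which helps damage recognition and carries cargo to the proteasome, was the highest gene of this set at 77.8 and 59.5 against 81.4 and 68.8 FPKM. ERCC6L and ERCC6L2 are named for sequence likeness to ERCC6, and both overlapped between the groups, with log2 fold changes of 0.00 and 0.07.

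Base excision repair genes had high levels and small differences. APEX1, the nuclease that opens the strand at a missing base, had the highest mean level of all members, at 125 and 140.4 FPKM in NC and 142 and 135 in KDM5_KD. UNG, which removes uracil, was at 72.4 and 73.0 against 67.8 and 72.7 FPKM, with a 95% interval from -0.33 to 0.23. OGG1, which removes oxidised guanine, was at 17.3 and 18.0 against 20.4 and 18.5. PARP1, which marks nicks, was at 41.6 and 39.9 against 36.3 and 39.1. All 4 rows lay within 0.2 of zero on the log2 scale, as did 48.6% of all transcripts. Both knockdown libraries lay above both controls for OGG1 and below both for PARP1, while APEX1 and UNG overlapped between the groups.

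Another pair of RAD genes has other functions. RAD21, a subunit of cohesin, which holds sister chromatids together, was at 81.9 and 92.3 FPKM in NC and 81.1 and 76.9 in KDM5_KD. RAD18, a ubiquitin ligase that directs bypass of lesions by modifying PCNA, was at 8.04 and 6.58 FPKM in NC and 9.51 and 10.5 in KDM5_KD. Its groups did not overlap, and the log2 fold change of 0.41 (SE 0.185) had a limma adjusted p of 0.323.

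Ratios between partner genes of the same library do not depend on a scaling factor between libraries. The 15 ratios were chosen after the values were seen and are given as a description with no test. In both knockdown libraries 7 were lower and 3 higher than in both controls, and 5 overlapped. Whether a ratio is lower or higher depends on which gene was divided by which, and several genes enter repeatedly. The share among other gene pairs was not measured, so these counts have no background beside them. The ratio of POLD1 to POLD3 was 1.30 and 1.05 in NC and 0.621 and 0.742 in KDM5_KD, so the order of these subunits was reversed. That of RPA2 to RPA1 was 1.66 and 1.70 in NC and 1.21 and 1.05 in KDM5_KD. RPA2 and RPA1 were thus nearer to the same level in the knockdown libraries.

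For the clamp loader, RFC2 over RFC3 was 0.242 and 0.195 in NC and 0.414 and 0.374 in KDM5_KD. ORC1 over ORC4 was 3.57 and 3.78 against 2.44 and 2.14. POLE over POLE2 was 2.70 and 3.57 against 1.50 and 1.95. In the first and second of these ratios the space between the groups was wider than the gap within either group, and in the third it was narrower than the gap between the controls. Other ratios overlapped between the groups: MCM7 over MCM3 was 2.01 and 2.27 in NC and 2.06 and 1.99 in KDM5_KD, and XRCC6 over XRCC5 was 3.59 and 2.36 against 3.99 and 2.53.

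**Figure D5:**
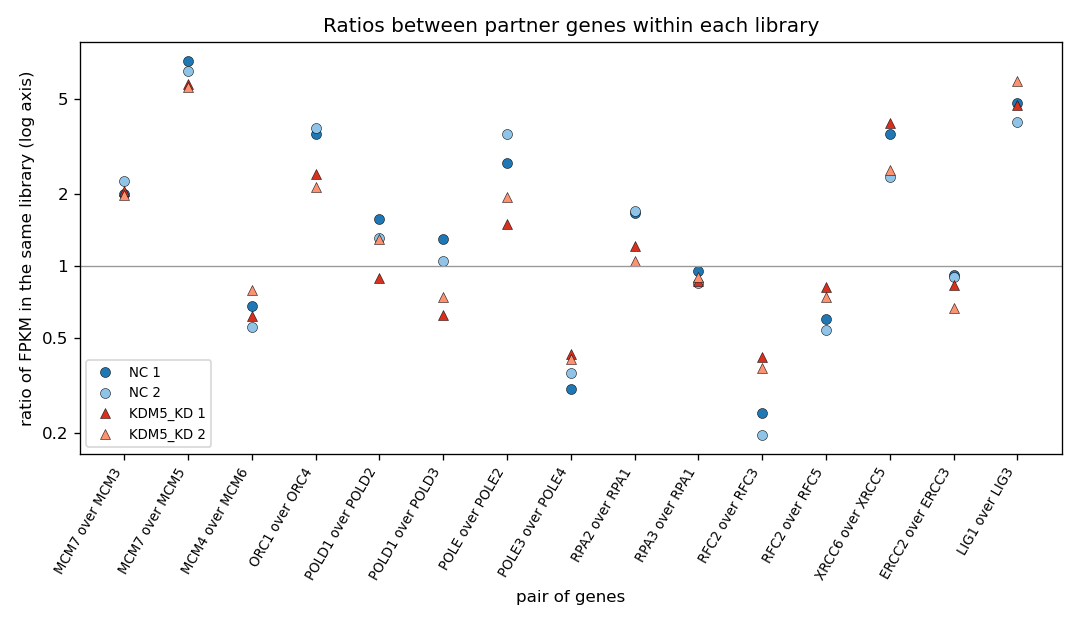
Ratio of FPKM between partner genes in the same library (y axis, log scale) for 15 pairs, with circles for NC and triangles for KDM5_KD. POLD1 over POLD3, RPA2 over RPA1 and RFC2 over RFC3 show triangles apart from circles, while RPA3 over RPA1 and LIG1 over LIG3 overlap.

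Other genes of the same pathways were compared from a list of 121 symbols, of which 93 had rows and 91 rows were tested. None passed the threshold, and 6 were higher and 1 lower at an unadjusted limma p under 0.05 (6.59% and 1.10%, against 14.3% and 3.12% of all transcripts). Of the 91 rows, 16 lay above and 15 below both controls (17.6% and 16.5%, against 35.1% and 15.6% of all transcripts). Their median log2 fold change was 0.08, against 0.09 for all transcripts. The median was -0.03 over 29 rows of replication genes and 0.10 over 50 rows of repair genes. CHTF18, a subunit of an alternative clamp loader, was at 10.7 and 12.9 FPKM in NC and 6.71 and 7.21 in KDM5_KD (a difference of -0.68, SE 0.180, with an adjusted p of 0.159 by limma). RECQL4, a helicase of replication initiation, and UIMC1, which brings BRCA1 to breaks, followed with -0.41 and -0.38. CHTF8 differed by more than 2-fold only through NC replicate 1, at 5.09 FPKM, where the other libraries were at 0.0786 or less.

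On the high side, SAMHD1, which degrades DNA building blocks and is also known as an interferon-induced gene, was listed at 0 and at 0.458 FPKM in NC and 2.05 and 2.67 in KDM5_KD. Its log2 fold change of 1.47 (SE 0.263) had a limma adjusted p of 0.106. HUS1, a checkpoint clamp subunit alongside RAD1, was at 2.11 and 2.40 FPKM against 5.93 and 4.21 (0.89, limma adjusted p of 0.157). BABAM2, of the complex that holds BRCA1, was at 0.775 and 0.764 against 2.86 and 1.46. Of the 12 tested rows of nucleotide supply, 9 overlapped and 3 lay above both controls (25%, against 35.1% of all transcripts). Besides SAMHD1 these were DUT, at 7.59 and 5.65 against 10.3 and 9.74 FPKM, and RRM1, at 10.7 and 13.3 against 14.1 and 17.1. Genes of this list with high levels overlapped: TK1 was at 61.6 and 60.5 against 68.4 and 60.1 FPKM, and TYMS at 94.3 and 74.1 against 90.8 and 90.4.

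A further 16 symbols that meet the naming rule, among them MCM2, RFC1, ATR, BRCA2 and XRCC1, were not analysed here.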

How the data were processed

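The deposited table holds FPKM values made by the authors for 4 libraries, 1 column each. Trimmomatic, HISAT2, featureCounts and Cufflinks are named, without role or version, per the submitters' processing notes. The genome build is not given in the sources used here, so no positions are printed. Accessions were matched without their version to the RefSeq gene table of ARS-UCD2.0, and 14295 of 14517 had a symbol.

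Log2(FPKM + 1) values of the 8970 transcripts with a mean of at least 1 FPKM were fitted with limma 3.58.1 in R 4.3.3 (lmFit, eBayes with trend, no covariates), with Benjamini-Hochberg adjustment over all of them. Depth in reads is unknown, so precision rests on 2 libraries per group. The fit was tested on simulated data, where it missed most changes of 2-fold. Summaries were made with pandas 2.3.3 and numpy 2.4.6 under Python 3.11.15, and plots with matplotlib 3.10.9. Genes named were role leaders, the 8 largest non-overlapping differences per direction, the siRNA targets, and the 3 largest among other pathway genes; further members are given for completeness. Some members enter the counts and fits but are not reported here by name. Members, lists, partner pairs and tests were chosen with earlier results of these data known. Alternatives were pseudocount, filter, scaling, variance trend, replicate block, rows summed by symbol and leaving out each library.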

Additional observations from a re-analysis of the deposited data

How the results depend on the processing

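No member passed the threshold, higher or lower, in any of the 12 alternatives; the lowest limma adjusted p of a member lay between 0.119 and 0.479 across them. With a replicate block the count stayed at 0 in each direction and the median at 0.03, while calls among all transcripts went from 25 to 12. Those calls were also 12 without the variance trend, 3 without a filter and 340 without NC replicate 1, and between 6 and 41 without another library. The labels do not say that the numbers mark shared embryos, and the deviations of same-numbered libraries correlated at 0.229. The median of the members, 0.03, became -0.068 with median-ratio scaling and -0.125 with quantile normalization, where the median of all transcripts was -0.007 and -0.047, and lay between -0.016 and 0.106 (all transcripts 0.070 to 0.117) when single libraries were left out. KDM5A, with a limma adjusted p of 0.0333, no longer passed in 6 alternatives (0.0591 to 0.232), and KDM5C passed without NC replicate 1 (limma adjusted p of 0.0265).

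Quantile normalization lowered several larger differences, to 0.35 for RFC2, 0.49 for ERCC1, 0.28 for ORC4, 0.22 for ORC5, 0.23 for GINS4, 0.20 for POLD4, 0.22 for RAD18, 0.03 for POLA1 and 0.20 for XRCC6, and moved XRCC3 to -0.70.

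Small differences changed sign. With median-ratio scaling they were -0.044 for APEX1, -0.048 for ATM, -0.046 for BRCA1, -0.057 for FANCA, -0.044 for FEN1, -0.045 for MCM5, -0.070 for MCM6, -0.089 for PCNA and -0.028 for TIPIN NM_001289992. With quantile normalization they were -0.18 for ATM, -0.088 for BRCA1, -0.25 for FANCA, -0.031 for MCM5, -0.24 for TIPIN NM_001289992 and -0.054 for XRCC5. Leaving out single libraries gave ranges of -0.016 to 0.15 (APEX1), -0.045 to 0.14 (ATM), -0.035 to 0.15 (BRCA1), -0.31 to 0.046 (CHEK1), -0.21 to 0.059 (CHEK2), -0.046 to 0.10 (FANCA), -0.24 to 0.20 (FANCD2), -0.021 to 0.15 (FEN1), -0.37 to 0.15 (KDM6A), -0.0070 to 0.35 (LIG1), -0.042 to 0.16 (MCM5), -0.14 to 0.18 (PCNA), -0.19 to 0.087 (RAD50), -0.25 to 0.13 (TIPIN NM_001289991), -0.26 to 0.32 (TIPIN NM_001289992) and -0.016 to 0.39 (XRCC5). The direction of these genes is not determined, and the cause was not tested. Without read counts, a limit of detection cannot be given.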
